A study of Rattus norvegicus with 9 samples.

Results

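Collagens are the fibre and sheet proteins of connective tissue, each a rope of 3 chains coded by genes named Col, and they were measured here as transcripts in the rat hypothalamus. All probe sets whose single gene symbol was a Col chain name were taken, which gave 41 collagen genes on 58 probe sets, of 14217 named genes and 31042 probe sets on the array. Where a gene had several probe sets, that of highest mean over all 9 arrays stood for it. The samples were hypothalami of male rats aged 13 weeks, 1 Affymetrix array per rat. The noodle group (4 rats) ate feed with 30% instant noodle by weight, 26% of its energy as fat, and the noodle's seasonings, for 30 days by one statement of the labels and 4 weeks by another. The control group (5 rats) ate the same feed with no seasonings, and intake was matched at about 60 g of feed per kg body weight per day. Both groups therefore ate noodles and fat, and by the labels the seasonings are what sets them apart. No label used here gives the strain.

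In brain, fibril-forming collagens of types I and III lie mainly in the coverings (meninges) and around larger vessels, where fibroblasts make them, while neurons and glia make little. Type IV collagen, a sheet former, is the core of the basement membrane that wraps capillaries and lines the brain surface. Type VI forms beaded filaments between fibrils and basement membrane, type VIII a hexagonal net, and the fibril-associated collagens coat fibrils. A few collagens with a membrane anchor or a short helix are made by neurons. In a whole-tissue sample, fewer cells of a kind and less RNA per cell cannot be told apart.

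Of the 41 genes, 11 were fibrillar, 7 belonged to basement membranes, 8 to networks, 9 to the fibril-associated group and 4 to the transmembrane group, and 2 (Col7a1 and Col26a1) to none of these. Col28a1, Col4a3 and Col6a4 were named by 0 probe sets and were not analysed here. Values are log2 values as deposited, and most probe sets on the array barely move between animals. A collagen gene was called variable where its highest and lowest rat differed by more than 0.05 log2 units, a limit taken over from earlier results of these data, and compressed otherwise. By this limit 12 of 41 collagen genes were variable, beside 3.94% of all probe sets and 5.21% of named genes taken by their own probe set of highest mean. Among the collagen genes the limit cut through an empty stretch, with Col6a3 (range 0.236) next above it and Col6a6 (0.0014) next below. Over all probe sets there was no such gap, with ranges up to 0.0498 below the limit and from 0.0505 above it.

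Among fibrillar collagens 4 of 11 were variable (Col1a1, Col1a2, Col3a1 and Col11a2), and among network collagens 4 of 8 (Col6a1, Col6a2, Col6a3 and Col8a2). The fibril-associated group gave 2 of 9 (Col12a1 and Col19a1), the transmembrane group 1 of 4 (Col25a1), and basement membrane collagens 1 of 7 (Col4a5). The main vascular chains Col4a1 and Col4a2 ranged over 0.00052 and 0.00074 log2 units, so the deposited values of these probe sets barely differed between rats. The median range over all probe sets was 0.00052, so such a range is no evidence of equal type IV levels. The other compressed genes of this type were Col4a4 and Col4a6. Col15a1 and Col18a1, which join basement membranes to the tissue below, and Col5a1, Col5a2 and Col5a3, which regulate fibril width, were also compressed, as were the fibrillar genes Col2a1, Col11a1, Col24a1 and Col27a1. So were the network gene Col10a1, a cartilage collagen, with Col6a5, Col6a6 and Col8a1. In the fibril-associated group the compressed genes were Col9a1, Col9a2, Col9a3, Col14a1, Col16a1, Col20a1 and Col22a1, and in the transmembrane group Col13a1, Col17a1 and Col23a1. Over the 29 compressed genes the range ran from 0.00024 to 0.0014. Among them the probe sets of highest mean were those of Col9a3 (8.01), Col16a1 (7.81) and Col5a2 (7.74).

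**Figure D1:**
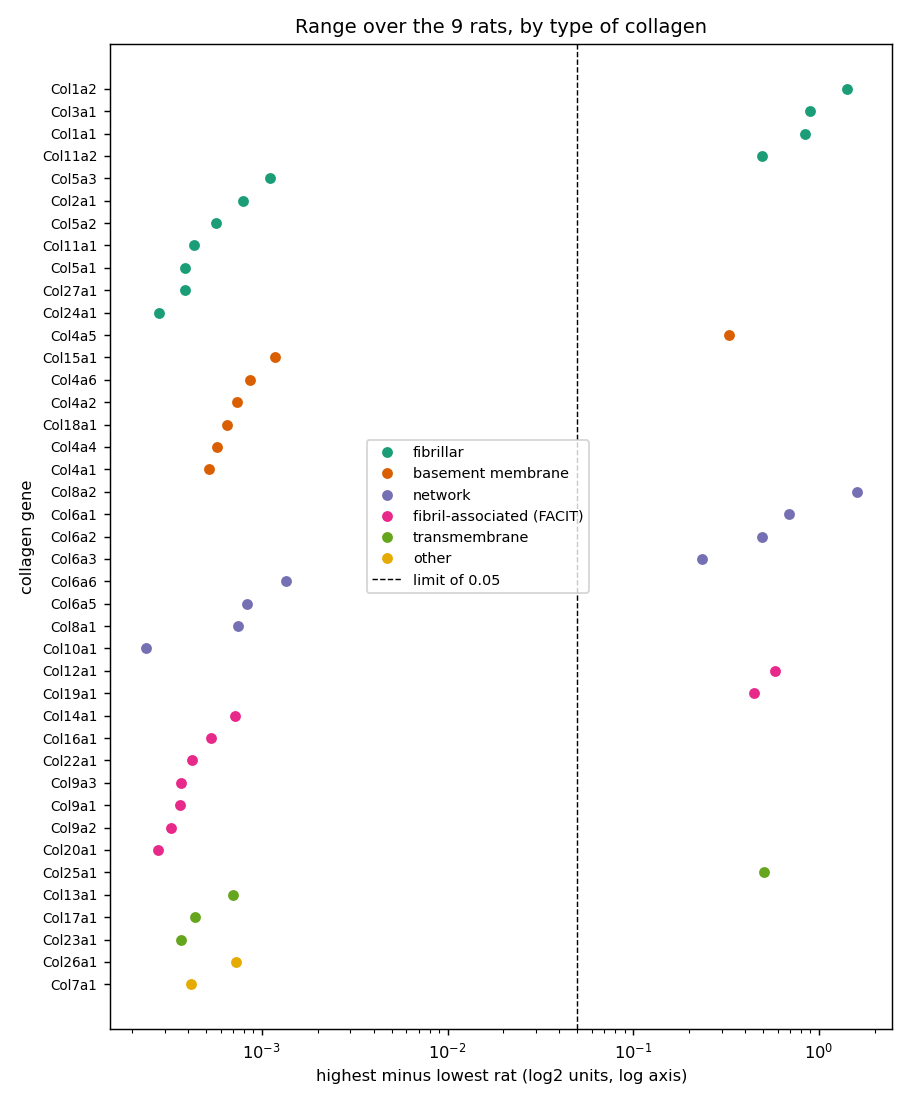
Range over the 9 rats (highest minus lowest deposited value, log2 units, log axis) of each of the 41 collagen genes, coloured by type of collagen, with the limit of 0.05 dashed. The 12 variable genes sit between 0.236 (Col6a3) and 1.60 (Col8a2), and the 29 compressed genes sit at or below 0.0014.

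Promoter sequences were at hand for 32 of the 41 genes, from RefSeq on build GRCr8, as 250 bases before the transcript start. They are shown for 3 of the genes that varied together below and for the compressed type IV pair. Col1a1, Col3a1, Col6a2 and Col12a1 had no entry. Only bases outside every annotated gene are printed, 5′ to 3′ along each gene's strand, with motif matches in capitals. Each motif was searched on both strands. The CCAAT box appears as ATTGG when reversed. The TATA box was searched as TATAAA, and its reverse is TTTATA. The GC box was searched as GGGCGG, and its reverse is CCGCCC.
Col1a2 (chr4:33518307-33518556, plus strand): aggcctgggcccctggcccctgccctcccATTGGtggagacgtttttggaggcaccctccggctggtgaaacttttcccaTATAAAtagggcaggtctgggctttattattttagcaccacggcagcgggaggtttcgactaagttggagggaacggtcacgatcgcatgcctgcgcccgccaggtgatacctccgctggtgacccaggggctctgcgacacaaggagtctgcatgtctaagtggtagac
Col6a1 (chr20:11905440-11905689, plus strand): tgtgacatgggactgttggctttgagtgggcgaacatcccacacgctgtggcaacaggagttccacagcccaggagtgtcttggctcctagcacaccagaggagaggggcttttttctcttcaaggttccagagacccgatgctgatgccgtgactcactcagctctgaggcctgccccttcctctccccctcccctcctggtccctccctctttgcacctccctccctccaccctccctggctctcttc
Col8a2 (chr5:143870519-143870753, plus strand): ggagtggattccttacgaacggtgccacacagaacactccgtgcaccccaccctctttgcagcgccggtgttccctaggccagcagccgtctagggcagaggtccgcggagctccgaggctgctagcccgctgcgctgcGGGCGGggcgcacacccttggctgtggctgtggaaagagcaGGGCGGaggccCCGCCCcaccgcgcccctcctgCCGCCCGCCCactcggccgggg
Col4a1, all bases between its start and that of Col4a2 on the other strand (chr16:84885521-84885596, plus strand): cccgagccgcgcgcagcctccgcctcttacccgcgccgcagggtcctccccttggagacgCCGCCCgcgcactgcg

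None of the 3 motifs was found in all the promoters of co-varying genes. Col1a2 held 1 CCAAT box and 1 TATA box, Col8a2 held 5 GC boxes of which the last pair overlaps, and Col6a1 and Col6a3 held 0 of the 3 motifs. Over all 33469 promoters of the table, 34.0% held a CCAAT box, 12.9% a TATA box and 30.5% a GC box. The start sites of Col4a1 and Col4a2 face away from each other across 76 bases, with 1 GC box between them. Among the 25 compressed genes with a promoter, 15 held a GC box, 8 a CCAAT box and 3 a TATA box.

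Among fibrillar collagens, the type I chains differed widely between rats fed the same diet. Col1a2, the alpha-2 chain of type I collagen, measured 9.005, 7.96, 7.78 and 8.40 in noodle-diet rats 1, 4, 7 and 13, and 8.81, 8.59, 8.82, 7.69 and 7.59 in control rats 2, 5, 8, 11 and 14. Each diet held rats near the top and near the bottom, and the groups overlapped over most of their spread. The distance from highest to lowest rat was 1.41 log2 units, 2.67-fold on the deposited scale, and 48 of 31042 probe sets ranged further. Col1a1, the alpha-1 chain of the same protein, measured 7.40, 6.78, 6.87 and 6.998 in the noodle group and 7.37, 7.12, 7.48, 6.70 and 6.64 in the controls, in the same rat order. Again noodle-diet rat 1 and control rats 2 and 8 stood high and control rats 11 and 14 low. Col3a1, the only chain of type III collagen, which forms mixed fibrils with type I in stretchable tissue, measured 7.82, 7.19, 6.92 and 7.46 against 7.46, 7.42, 7.64, 7.12 and 7.05. Its lowest rat was noodle-diet rat 7, and its groups overlapped too.

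Both type I chains had a second probe set that was variable. The second Col1a2 probe set ranged over 1.40 log2 units, from control rat 14 (6.80) to noodle-diet rat 1 (8.21), and the second Col1a1 probe set over 0.752, between those same rats. Over the 9 rats the second Col1a2 probe set followed the first with a Pearson r of 0.993 (exact permutation p = 5.51e-06, adjusted p = 0.00072) and a Spearman rho of 0.983 (exact permutation p = 4.96e-05, adjusted p = 0.0017). Agreement was looser for Col1a1, whose probe sets correlated with each other at r = 0.855 over the rats, given as a description. The first had its highest value in control rat 8 and the second in noodle-diet rat 1. Their diet differences had opposite signs, at -0.045 (SE 0.216) and 0.071 (SE 0.158) log2 units, both smaller than their errors. The second Col1a1 probe set followed Col1a2 with r = 0.867 and rho = 0.883 (adjusted p = 0.0069 and 0.022 by exact permutation).

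Network collagens held the widest range of the family. Col8a2, a chain of type VIII collagen, known from the membrane under the corneal endothelium and from vessel walls, measured 7.93, 6.72, 6.34 and 7.03 in noodle-diet rats 1, 4, 7 and 13, and 7.73, 7.19, 7.70, 6.32 and 6.43 in control rats 2, 5, 8, 11 and 14. This is a spread of 1.60 log2 units, 3.04-fold on the deposited scale, with the same 3 rats highest and the same 3 lowest as for Col1a2. The type VI chain Col6a1 measured 7.18, 6.79, 6.83 and 6.98 against 7.13, 7.12, 7.34, 6.85 and 6.65. Its partner chain Col6a2 measured 6.72, 6.40, 6.34 and 6.46 against 6.78, 6.63, 6.71, 6.37 and 6.29. Col6a3, the large chain that completes the type VI trimer, moved least, at 6.63, 6.42, 6.40 and 6.55 against 6.61, 6.55, 6.55, 6.40 and 6.40. In all 3 type VI genes control rat 14 was lowest. Col6a5 and Col6a6, alternative type VI chains, and Col8a1, the partner chain of type VIII, were compressed. Compressed genes were not tested against Col1a2. As a description, Col8a1 had a Pearson r of 0.902 with Col1a2 over its range of 0.00074 log2 units. Over the 29 compressed genes r ran from -0.625 to 0.902 (median 0.032), so Col8a1 was the highest of them. Over all 29819 compressed probe sets r ran from -0.955 to 0.981 (median -0.056).

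The remaining variable genes had other orders of rats, apart from Col12a1. Col12a1, a fibril-associated chain that coats type I fibrils, measured 7.10, 6.79, 6.65 and 6.76 against 6.88, 6.94, 6.84, 6.52 and 6.67. Noodle-diet rat 1 was highest and control rat 11 lowest. Col19a1, a fibril-associated chain known from neurons, measured 7.46, 7.84, 7.48 and 7.57 against 7.42, 7.67, 7.59, 7.73 and 7.40. Its highest rats, noodle-diet rat 4 and control rat 11, were low for type I collagen. Col25a1, a neuronal collagen with a membrane anchor, measured 9.12, 8.94, 8.95 and 8.98 against 9.09, 8.92, 8.64, 9.02 and 9.15. Control rat 8, high for type I collagen, was its lowest rat. Col4a5, a type IV chain that is mutated in Alport syndrome, measured 7.93, 7.72, 7.61 and 7.92 against 7.76, 7.82, 7.65, 7.71 and 7.60. Col11a2, a minor fibrillar chain known from cartilage, measured 7.70, 8.13, 8.19 and 8.17 against 8.11, 8.19, 8.15, 8.18 and 7.89. Here 7 rats lay between 8.11 and 8.19, and only noodle-diet rat 1 and control rat 14 lay lower.

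**Figure D2:**
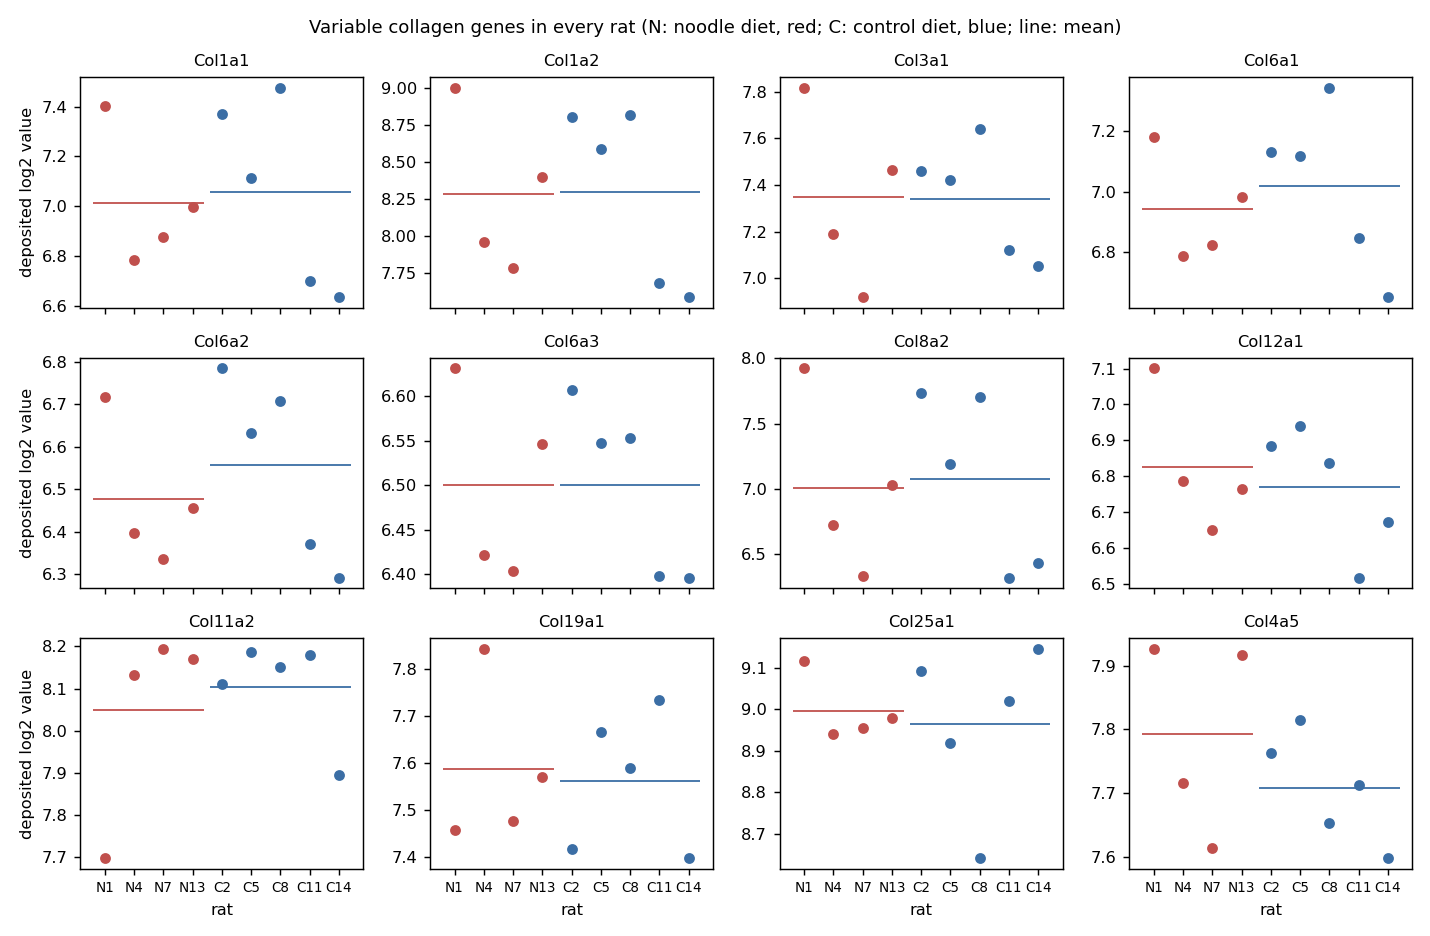
Deposited log2 values of the 12 variable collagen genes in each rat (N, noodle diet; C, control diet; horizontal lines are group means). In the upper 8 panels noodle-diet rat 1 and control rats 2, 5 and 8 stand in the upper part and noodle-diet rat 7 and control rats 11 and 14 in the lower part; Col11a2, Col19a1, Col25a1 and Col4a5 show other orders.

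To describe this co-variation, each variable probe set was correlated with Col1a2 over the 9 rats, with exact permutation p-values (2-sided, all 362880 orders of the rats) adjusted by Benjamini-Hochberg over the 1222 other variable probe sets. At an adjusted p under 0.05, 7 of the 11 other variable collagen genes correlated positively with Col1a2, beside 18.7% of all variable probe sets, and 0 correlated negatively, beside 2.05%. The 7 were Col8a2, Col6a3, Col1a1, Col6a2, Col3a1, Col6a1 and Col12a1. They code for chains of types I and III (fibrillar), VI and VIII (network) and XII (fibril-associated). Other genes of these classes were compressed or, as with Col11a2 and Col19a1, did not pass. The median r over all 1222 probe sets was 0.295.

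The highest Pearson coefficients were those of Col8a2 and Col6a3, while by Spearman's rho Col1a1 stood above Col8a2. Col8a2 followed Col1a2 with r = 0.979 (exact permutation p = 4.96e-05, adjusted p = 0.0016) and rho = 0.933 (p = 0.00075, adjusted p = 0.0093). Col6a3, despite its small range, had r = 0.976 (exact permutation p = 1.65e-05, adjusted p = 0.00096) and rho = 0.983 (p = 4.96e-05, adjusted p = 0.0017). The type I partner Col1a1 had r = 0.961 (exact permutation p = 0.00025, adjusted p = 0.0043) and rho = 0.967 (p = 0.00017, adjusted p = 0.0036). Col6a2 had r = 0.957 and rho = 0.933 (adjusted p = 0.0063 and 0.0093 by exact permutation), and Col6a1 r = 0.929 and rho = 0.917 (adjusted p = 0.0079 and 0.013 by exact permutation). Col3a1 had r = 0.937 and rho = 0.900 (adjusted p = 0.0046 and 0.017 by exact permutation), and Col12a1 r = 0.872 and rho = 0.867 (adjusted p = 0.0099 and 0.028 by exact permutation). Whether these coefficients differ from each other was not tested. Of the 7 genes only Col1a1 had a second variable probe set.

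The other 4 variable genes did not pass. Col4a5 had r = 0.625 and rho = 0.650 (adjusted p = 0.203 and 0.189 by exact permutation). Col19a1 had r = -0.211 and rho = -0.067 (adjusted p = 0.755 and 0.953 by exact permutation). Col25a1 had r = -0.240 and rho = -0.233 (adjusted p = 0.760 and 0.761 by exact permutation), and r = 0.125 without control rat 8. Col11a2 had r = -0.247 and rho = -0.300 (adjusted p = 0.719 and 0.654 by exact permutation), and r = 0.348 without noodle-diet rat 1. Among the 8 genes that include Col1a2, pairwise r had a median of 0.920 (28 pairs, 0.683 to 0.979), and between them and the other 4 a median of -0.196 (32 pairs, -0.513 to 0.714). All these pairs share the same 9 arrays, and the 8 genes were grouped by these values, so the medians only describe them.

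Most of these relations were also seen within the diets. Within the diets, taking deviations from each diet's mean, r was 0.981 for Col8a2, 0.976 for Col6a3, 0.963 for Col1a1, 0.980 for Col6a2, 0.937 for Col3a1 and 0.942 for Col6a1 (adjusted p from 0.016 to 0.023 by exact permutation within diets), and 0.886 for Col12a1 (adjusted p = 0.066). In the noodle group alone these 7 coefficients ran from 0.924 to 0.989 and in the control group alone from 0.868 to 0.986, given as a description with no test over so few rats. Control rats 11 and 14 lay farthest from the median of Col1a2. Without them r was 0.982 for Col8a2, 0.966 for Col6a3, 0.947 for Col6a2, 0.943 for Col3a1 and 0.929 for Col1a1 (adjusted p from 0.013 to 0.034 by exact permutation), while Col6a1 (r = 0.908, adjusted p = 0.053) and Col12a1 (r = 0.824, adjusted p = 0.119) no longer passed. The rats formed an uneven series on Col1a2, with the widest gap (0.440) between noodle-diet rats 4 and 13. In Col8a2 the widest gap lay elsewhere, between control rats 5 and 8, so no split into separate clusters was made.

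**Figure D3:**
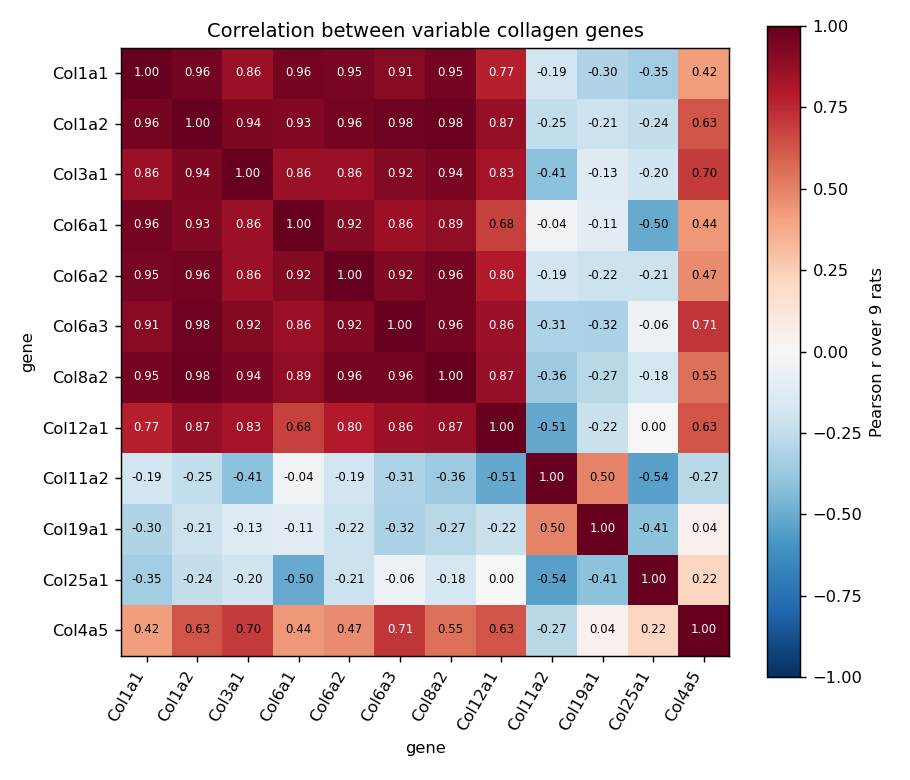
Pearson r over the 9 rats for each pair of the 12 variable collagen genes (red positive, blue negative, value in each cell). The 8 genes from Col1a1 to Col12a1 form a block of r from 0.683 to 0.979, with Col4a5 at 0.42 to 0.71 against them and Col11a2, Col19a1 and Col25a1 at or below about 0.

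**Figure D4:**
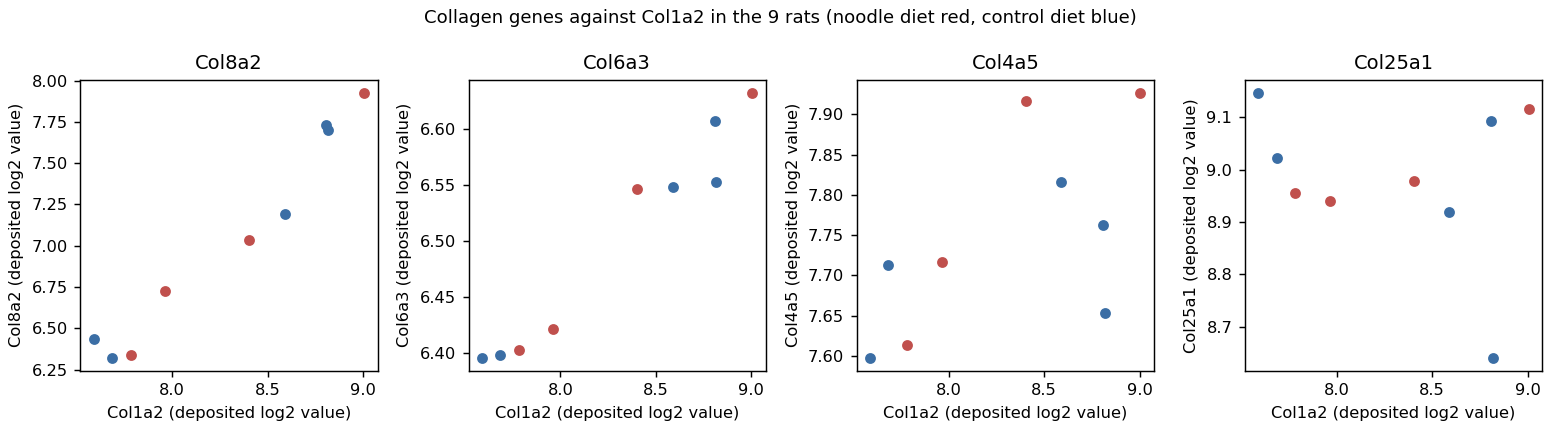
Col8a2, Col6a3, Col4a5 and Col25a1 against Col1a2 (deposited log2 values, 1 point per rat, noodle diet red and control diet blue). Col8a2 (r = 0.979) and Col6a3 (r = 0.976) rise along a line with rats of both diets on it, Col4a5 (r = 0.625) scatters, and Col25a1 (r = -0.240) shows no rise.

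No collagen gene passed the test for a difference between the diets. By limma, 0 of 41 collagen genes had an adjusted p under 0.05, beside 0% of all 31042 probe sets, and 2 had an unadjusted p under 0.05, beside 2.29%. Of the 12 variable genes 6 were higher and 6 lower on the noodle diet (51.9% of variable probe sets were higher), and 0 had an unadjusted p under 0.05. In all 12 the difference was smaller than the larger of the groups' SDs, as it was in 97.5% of variable probe sets. In 0 of the 12 did the groups keep apart, beside 0.0818% of variable probe sets. The median difference was -0.0045 log2 units over the 12, and 0.0035 over all variable probe sets.

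The type I, III and VIII genes had the widest intervals. Col1a2 averaged 8.29 ± 0.54 (SD, n = 4) in the noodle group and 8.298 ± 0.61 (SD, n = 5) in the controls. The difference was -0.0092 (SE 0.371, 95% interval -0.87 to 0.85). Col8a2 averaged 7.005 ± 0.68 against 7.08 ± 0.67 (difference -0.071, 95% interval -1.07 to 0.93). With this number of rats, the values of these 2 genes are compatible with any difference within these bounds. Col1a1 (7.01 ± 0.27 against 7.06 ± 0.38) and Col3a1 (7.35 ± 0.38 against 7.34 ± 0.25) had intervals of -0.55 to 0.46 and -0.45 to 0.47. Type VI genes had narrower intervals, of -0.42 to 0.27 for Col6a1, -0.37 to 0.21 for Col6a2 and -0.15 to 0.15 for Col6a3.

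Among the other variable genes Col4a5 had the lowest p. It averaged 7.79 ± 0.15 in the noodle group and 7.71 ± 0.086 in the controls. The noodle group was 0.085 higher (SE 0.076, 95% interval -0.092 to 0.262, limma unadjusted p = 0.298). Col12a1, Col19a1, Col25a1 and Col11a2 differed by 0.056, 0.026, 0.033 and -0.056, with intervals of -0.21 to 0.32, -0.21 to 0.27, -0.20 to 0.27 and -0.32 to 0.21. By limma the adjusted p rounded to 1 for all 41 genes. When noodle-diet rat 1 was left out, 3 of the 12 were higher on the noodle diet rather than 6, and the same count came without control rat 11 and without control rat 14.

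**Figure D5:**
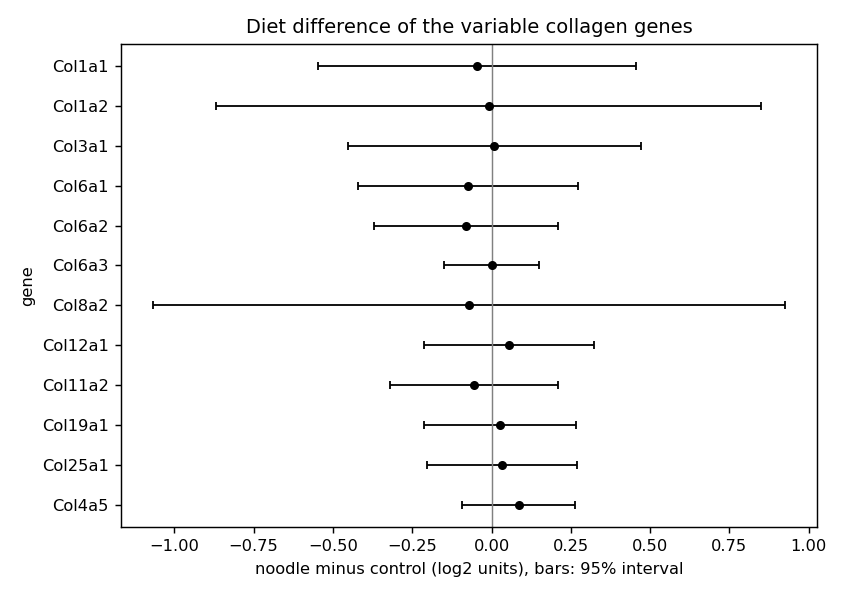
Difference between diets (noodle minus control, log2 units) of the 12 variable collagen genes, with the 95% interval of the limma fit over 4 noodle-diet and 5 control rats. Every interval spans 0, from the narrowest at Col6a3 (-0.15 to 0.15) to the widest at Col8a2 (-1.07 to 0.93).

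Of the 29 compressed genes 9 were higher and 20 lower on the noodle diet, with differences from -0.00039 to 0.00035, and 48% of all probe sets were higher. The 2 genes with an unadjusted p under 0.05 were Col13a1, a transmembrane collagen, which differed by 0.00035, and Col14a1, a fibril-associated chain, which differed by -0.00039. Col16a1, a fibril-associated chain with the next lowest p in the limma fit, differed by -0.00017. For Col13a1 all noodle-diet rats lay above every control, and such a separation of groups was seen in 0.567% of all probe sets. Differences of this size cannot be read as fold changes, and with quantile normalization or a common array median 0 collagen genes had an unadjusted p under 0.05.

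Genes that make, assemble, bind and cut collagen were read from lists set for these data with earlier results known, by the probe set of highest mean. Their counts stand beside 5.21% of named genes that were variable and 18.7% of variable probe sets that followed Col1a2, and only variable genes were correlated. Of 20 measured genes that modify and fold the chains, 2 were variable. Serpinh1, the chaperone HSP47 that binds only procollagen, spanned 8.35 (control rat 11) to 8.79 (noodle-diet rat 1) and followed Col1a2 with r = 0.814 and rho = 0.933 (adjusted p = 0.0065 and 0.0093 by exact permutation). P3h3, a prolyl hydroxylase family member, spanned 7.61 to 7.99 without following it (r = -0.357, rho = -0.233, adjusted p = 0.577 and 0.761 by exact permutation). The other 18 genes of the list were compressed, among them Fkbp10, a chaperone of the endoplasmic reticulum (range 0.00081).

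Of 12 measured genes of procollagen cleavage and fibril assembly, 3 were variable, and all 3 followed Col1a2. Fn1 (fibronectin, on which fibrils are laid down) spanned 7.13 to 8.22 with r = 0.990 and rho = 0.967 (adjusted p = 0.00096 and 0.0036 by exact permutation). Fbln1 (fibulin-1) spanned 6.99 to 7.44 with r = 0.954 and rho = 0.883 (adjusted p = 0.011 and 0.022 by exact permutation). Pcolce, the enhancer of the enzyme that trims type I procollagen, spanned 6.61 to 6.79 with r = 0.951 and rho = 0.967 (adjusted p = 0.0046 and 0.0036 by exact permutation).

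Among 6 measured collagen receptors 3 were variable, and only Itgb1, the integrin beta-1 chain, followed Col1a2 (r = 0.866, rho = 0.867, adjusted p = 0.035 and 0.028 by exact permutation). Ddr2, a receptor for fibrillar collagen, spanned 6.07 to 6.63 (r = 0.712, rho = 0.700, adjusted p = 0.103 and 0.137 by exact permutation), and Ddr1 8.25 to 8.56 (r = 0.565, rho = 0.567, adjusted p = 0.251 and 0.279 by exact permutation). Of 11 breakdown genes 3 were variable. The protease inhibitors Timp1 (r = 0.889, rho = 0.883, adjusted p = 0.0081 and 0.022 by exact permutation) and Timp3 (r = 0.969, rho = 0.933, adjusted p = 0.0032 and 0.0093 by exact permutation) followed Col1a2. The membrane collagenase gene Mmp14 did not pass (r = 0.562, rho = 0.567, adjusted p = 0.266 and 0.279 by exact permutation).

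Of 16 measured basement membrane partners of type IV collagen (laminin, nidogen, perlecan and related genes) 1 was variable, a share near the 5.21% of all named genes. It was Lamb2 (laminin beta-2), which spanned 7.19 to 7.73 and did not pass (r = 0.757, rho = 0.767, adjusted p = 0.058 and 0.085 by exact permutation). Nid1 and Lama2 ranged over 0.014 and 0.0010. Between the diets 0 genes of these 5 lists had an unadjusted p under 0.05 by limma, beside 2.29% of all probe sets. By list, 10 of 20, 3 of 12, 3 of 6, 7 of 11 and 6 of 16 genes were higher on the noodle diet. The lists stand in the order given above, and over all probe sets 48% were higher. The median differences of the lists ran from -0.000072 to 0.000045 log2 units, against -4.6e-06 over all probe sets.

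Many markers of fibroblasts of the meninges and vessels moved with these collagens. Of the 20 genes on that list 18 were measured and 16 were variable, where 5.21% of named genes were. Of the 16, 13 followed Col1a2 at an adjusted p under 0.05, where 18.7% of variable probe sets did. Both the list and the choice of Col1a2 were set with earlier results of these data known. These counts therefore describe the list and are no independent support. Ogn, a small matrix proteoglycan, spanned 6.80 to 8.71 with r = 0.990 and rho = 0.983 (adjusted p = 0.00072 and 0.0017 by exact permutation), and the growth factor gene Igf2 spanned 7.99 to 9.65 with r = 0.988 and rho = 0.983 (adjusted p = 0.00079 and 0.0017 by exact permutation). Dcn (decorin), which binds type I fibrils, spanned 7.17 to 8.23 and did not pass (r = 0.691, rho = 0.717, adjusted p = 0.109 and 0.123 by exact permutation), nor did Apod (r = 0.657, rho = 0.717, adjusted p = 0.175 and 0.123 by exact permutation). Pdgfra, which precursors of oligodendrocytes also express, passed (r = 0.827, rho = 0.850, adjusted p = 0.029 and 0.035 by exact permutation). The mean level of the 18 markers ran from 7.03 to 7.92 over the noodle-diet rats and from 6.98 to 7.79 over the controls. Pcolce stands on this list and on that of fibril assembly. The part of fibroblast content in these values was not tested.

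Markers of other cell types were read the same way, with correlations for the variable ones alone. Of 10 measured endothelial markers (among them Cldn5, Kdr and Slco1a4) 0 were variable, near the share of 5.21% of all named genes, so this list says nothing on the rats' endothelial content. Its mean level ran from 7.4769 to 7.4774. Of the variable markers, 1 of 3 for pericytes and smooth muscle followed Col1a2 (Vtn, r = 0.870, rho = 0.950). So did 1 of 4 for astrocytes (Gfap, r = 0.882, rho = 0.867) and 1 of 3 for ependymal cells (Rarres2, r = 0.991, rho = 0.983). For oligodendrocytes and precursors 1 of 7 did (Pdgfra). Over all variable probe sets the share was 18.7%. Among the pericyte and smooth muscle markers, Rgs5 had r = -0.647 and Tagln r = 0.775, and neither passed. The ependymal markers Tmem212 and Dynlrb2 had r of -0.171 and -0.285. The other variable markers of astrocytes and of oligodendrocytes and precursors had r from 0.200 to 0.693 without passing. Vtn, Gfap and Rarres2 were chosen after their values were seen, with adjusted p of 0.010 and 0.0063 for Vtn, 0.021 and 0.028 for Gfap and 0.00072 and 0.0017 for Rarres2 by exact permutation.

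The other lists had 0 genes that passed, out of 2 variable markers for choroid plexus, 2 for pituitary, 8 for neurons and 1 for red blood cells. Ttr (transthyretin), the main choroid plexus transcript, spanned 5.68 to 7.67 and had r = 0.798 and rho = 0.783 with Col1a2 (adjusted p = 0.073 and 0.073 by exact permutation). Prlr, the other variable marker of that list and its highest in mean, had r = -0.501 and rho = -0.533 (adjusted p = 0.325 and 0.316 by exact permutation). Hbb, a haemoglobin chain of red blood cells, spanned 10.57 to 11.54 and had r = 0.781 and rho = 0.633 (adjusted p = 0.085 and 0.205 by exact permutation). The coefficients of Ttr and Hbb were high without passing. The part of choroid plexus, blood or any other cell type in the collagen values was not tested. Over the 10 lists 0 variable markers opposed Col1a2 at that threshold. Between the diets, 2 of 10 pericyte and smooth muscle, 2 of 8 astrocyte and 1 of 5 ependymal markers had an unadjusted p under 0.05 by limma. All of these were compressed, and the other marker lists had 0. Over all probe sets the share was 2.29%, and 0 markers had an adjusted p under 0.05. Among the hypothalamic neuron markers, Pmch ranged from 11.85 to 12.37 and Avp from 10.49 to 11.84. The 8 variable ones had r with Col1a2 from -0.622 (Trh) to 0.720 (Npy), without passing.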

How the data were processed

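The authors deposited 1 table of log2 values for 9 Affymetrix arrays (100 ng total RNA per label protocol); summarization and normalization are stated in no source used here, and that the deposited values are log2 was inferred from their range (5.13 to 13.7). Array medians lay between 6.777 and 6.785 and pairwise array correlations between 0.997 and 0.999. No further scaling was done, 57 control probe sets were left out, and the number of arrays limits the precision. Signal over background is unknown, which limits what a level or a compressed range can mean. The labels name separate rats, and p-values measure the spread between them.

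Probe sets were named by the platform annotation. All 58 collagen probe sets matched the rat gene table (GRCr8, used for names and gene order) by gene number, and 0 symbols changed. Of the probe sets, 20826 had 1 symbol, 436 several and 9780 none. Diets were compared with limma 3.58.1 in R 4.3.3 (lmFit, eBayes with an intensity trend, 2-sided, Benjamini-Hochberg over 31042 probe sets), and correlations by exact permutation in Python 3.11.15. Both were tested on simulated data. The members, lists and tests were chosen with earlier results of these data known. Named genes are every collagen gene (the compressed ones by class), with values the variable ones and the 3 compressed ones of highest mean and of lowest p, the 3 of largest range per pathway list, the 3 of highest mean per marker list (given where a result turns on them), and Ogn, Igf2 and Dcn. Alternatives were quantile normalization, a common array median, other variance models, array weights, a filter at the 20th percentile, other probe sets per gene and leaving out rats.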

Additional observations from a re-analysis of the deposited data

Results flagged for a closer look

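Of the 24 groups tested (2 diets for each of the 12 variable collagen genes), 2 had a single outlying rat, and about 1.2 are flagged by chance. Both concern Col11a2. Noodle-diet rat 1 stood at 7.70, below the 8.13 to 8.19 of noodle-diet rats 4, 7 and 13, and control rat 14 stood at 7.89, below the 8.11 to 8.19 of its 4 group mates. These rats lie at opposite ends of Col1a2, at 9.005 and 7.59. Col11a2 has 1 probe set, so no further reading of it was at hand.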

How the results depend on the processing

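No paired analysis was made because the labels used here name no pairs or blocks of rats. The count of 0 collagen genes, and of 0 probe sets, with an adjusted p under 0.05 held in all alternatives run (lowest adjusted p of a variable collagen gene 0.9996), as did the 12 variable genes. Collagen genes with an unadjusted p under 0.05 fell from 2 to 0 with a common array median or quantile normalization. They fell to 1 with the 20th percentile filter, which drops Col13a1. They also fell to 1 with the probe set of largest range, where another probe set (range 0.0012) stood for Col14a1. With single rats left out they numbered 2 to 3, and variable genes higher on the noodle diet 3 to 9. Of 204 refitted diet differences 32 changed sign. Averaging probe sets gave 0.013 for Col1a1 and 0.0032 for Col1a2, and the others came with single rats left out, over ranges of -0.11 to 0.061 for Col11a2, -0.036 to 0.11 for Col12a1, -0.060 to 0.069 for Col19a1, -0.17 to 0.059 for Col1a1, -0.25 to 0.16 for Col1a2, -0.047 to 0.079 for Col25a1, -0.15 to 0.15 for Col3a1, -0.17 to 0.0069 for Col6a1, -0.044 to 0.033 for Col6a3 and -0.38 to 0.15 for Col8a2. Scaling changed no sign. The number of genes following Col1a2 was 5 to 7. Col12a1 did not pass with Col1a1 as reference (r = 0.775, adjusted p = 0.063), within diets, without noodle-diet rat 1 (r = 0.839, adjusted p = 0.061) or without 2 rats. With single rats left out r ran from -0.557 to 0.348 for Col11a2 and from -0.496 to 0.125 for Col25a1, which stood at 0.060 without 2 rats.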

Other observations

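Gene order offers a further description. In the rat gene table Col6a1 and Col6a2 are direct neighbours, and both were variable and followed Col1a2. Col3a1, which followed Col1a2, is a direct neighbour of Col5a2, whose probe set ranged over 0.00057. Col19a1, which was variable, neighbours Col9a1 (range 0.00036), and the divergent pair Col4a1 and Col4a2 was compressed on both sides. Further probe sets of Col12a1, Col6a2 and Col6a3 were compressed while the probe sets of highest mean were variable, so for these 3 genes the variation rests on 1 probe set each. Their r with the variable probe set was -0.199 and -0.766 for Col12a1, 0.569 for Col6a2 and 0.051 for Col6a3, as a description. Col3a1, Col6a1 and Col8a2 had 1 probe set each, so their variation also rests on 1 reading.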
